A study of Mus musculus with 8 samples.

Results

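The 10 genes described here encode chemokines and components or responders of NF-kB signalling. They are Ccl2, Cxcl1, Cxcl10, Cxcl12 and Cx3cl1 (ligands), Nfkb1 and Relb (subunits), Nfkbia and Tnfaip3 (inhibitors) and Icam1 (an adhesion molecule). They were taken by symbol, and all 10 were found among the 23504 gene symbols of the count table. RNA of the outer renal cortex was sequenced from wild type C57Bl6/J mice after 9 weeks on a high fat diet (4 libraries, A, B, F and G). The comparison group was 4 libraries (I, J, L and M) from wild type C57Bl6/J mice after the same time on a control diet. Mice of both groups went on their diet at 6 weeks of age, which makes them 15 weeks old at harvest, and the labels name no other allele or agent. A letter M between diet and library letter in the sample titles (such as HF_M_A) is not defined. The labels state neither the makeup of the diets nor the sex of the mice. Nor do they say whether the libraries stem from different mice, so the tests speak only for the spread between these 8 libraries, which may be technical.

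NF-kB is a family of dimeric transcription factors that are held inactive in the cytoplasm by inhibitory proteins. Signals from cytokine and pattern recognition receptors lead to degradation of the inhibitor, and the freed dimers enter the nucleus and switch on genes of inflammation. Among these are the genes of the inhibitors themselves, which close a negative feedback loop. Chemokines are small secreted or membrane-tethered proteins that direct leukocytes through G protein-coupled receptors, and in the kidney they can be made by tubular, endothelial and stromal cells as well as by leukocytes.

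Total expected counts ran from 23503593 to 26291029 per library on the high fat diet and from 26572175 to 30781585 on the control diet. Rn45s, the ribosomal RNA precursor, took 50.3% of counts in control J and 1.23% to 13.3% in the other 7 libraries. It was therefore removed before normalisation, which left 13993652 counts in control J and 21793784 to 30403685 in the others. In control J 1 count was worth 0.0778 CPM, that is counts per 1000000. Levels below are CPM on library sizes scaled by TMM factors. The threshold for a call was 0.05 for the p adjusted by Benjamini and Hochberg's method over all 14711 tested genes. The tissue label was checked against cell type markers. The summed CPM of 5 proximal tubule markers ran from 19593 to 21060 on the high fat diet and from 19345 to 21161 on the control diet, and that of 5 fat markers did not exceed 0.653 and 1.33 CPM on these diets. Of the proximal tubule markers, Slc34a1 rose and Cubn fell. The 6 markers of other nephron segments summed to 3664 to 4338 CPM on the high fat diet and 4322 to 4815 CPM on the control diet, and Slc12a1, the transporter of the thick ascending limb, fell.

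Upstream sequence was available for 7 of the 10 genes, and it was searched on both strands for the NF-kB consensus site, a 10-letter motif known as the kB site, in the 250 bases before each RefSeq start. Cxcl1, Cxcl10, Nfkbia and Tnfaip3 held at least 1 match, and Cxcl12, Cx3cl1 and Icam1 held none in this window. Of all 32851 such windows in the genome, 7.25% held a match. Counted by gene, 8.23% of the 27025 genes with a window held a match in any window. Ccl2, Nfkb1 and Relb were not searched. The upstream sequences of Nfkbia and Cxcl1 are shown because these were the genes of the set that changed between the diets. They are 5′ to 3′ on the gene's strand (RefSeq, GRCm38.p6), with the matches in capitals, and the Cxcl1 sequence ends 5 bases before the RefSeq start. They lie at chr12:55492648-55492897 on the minus strand and chr5:90890995-90891240 on the plus strand. In Nfkbia the match began 29 bases before the start. In Cxcl1 matches to the motif on opposite strands, beginning 71 and 70 bases before the start, overlapped.
Nfkbia: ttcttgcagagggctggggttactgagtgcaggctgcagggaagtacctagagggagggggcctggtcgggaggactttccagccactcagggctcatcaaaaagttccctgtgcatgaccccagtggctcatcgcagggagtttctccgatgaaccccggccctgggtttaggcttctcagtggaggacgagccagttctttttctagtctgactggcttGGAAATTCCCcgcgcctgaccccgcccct
Cxcl1: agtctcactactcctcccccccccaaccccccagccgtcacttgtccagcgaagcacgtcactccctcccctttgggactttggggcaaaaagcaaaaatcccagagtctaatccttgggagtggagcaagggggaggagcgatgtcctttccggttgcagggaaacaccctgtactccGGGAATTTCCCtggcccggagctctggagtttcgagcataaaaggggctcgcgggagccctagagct

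The other matches are shown in windows of 30 bases to allow comparison with genes that were not called. They lay at chr5:92349029-92349058 and chr5:92348974-92349003 for Cxcl10 and at chr10:19015516-19015545 and chr10:19015411-19015440 for Tnfaip3, all on the minus strand. In the second window of Cxcl10, matches beginning 104 and 103 bases before the start overlapped. Tnfaip3 has a pair of starts in RefSeq, and the matches belong to the upstream one.
Cxcl10, first: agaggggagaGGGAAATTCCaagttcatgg
Cxcl10, second: tcggtttacaGGGGACTTCCCtcgggttgc
Tnfaip3, first: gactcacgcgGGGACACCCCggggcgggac
Tnfaip3, second: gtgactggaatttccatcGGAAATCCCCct

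Of the 9 genes tested, Nfkbia and Cxcl1 rose on the high fat diet and none fell in edgeR, and DESeq2 and limma-voom called the same pair of genes. That is 2 of 9, beside 9.99% of all tested genes called in either direction, 4.86% called higher and 5.13% called lower. Ccl2 had too few counts to be tested. At an unadjusted p under 0.05 were 4 of the 9 (Nfkbia, Cxcl1 and Tnfaip3 with higher and Cxcl10 with lower means on the high fat diet), beside 27.4% of all tested genes. The libraries of the diets did not overlap in 3 of the 9, all higher on the high fat diet, beside 17.5% of all tested genes in either direction and 8.29% higher. The median log2 fold change was 0.02 over the 9 genes and -0.0023 over all tested genes.

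**Figure D1:**
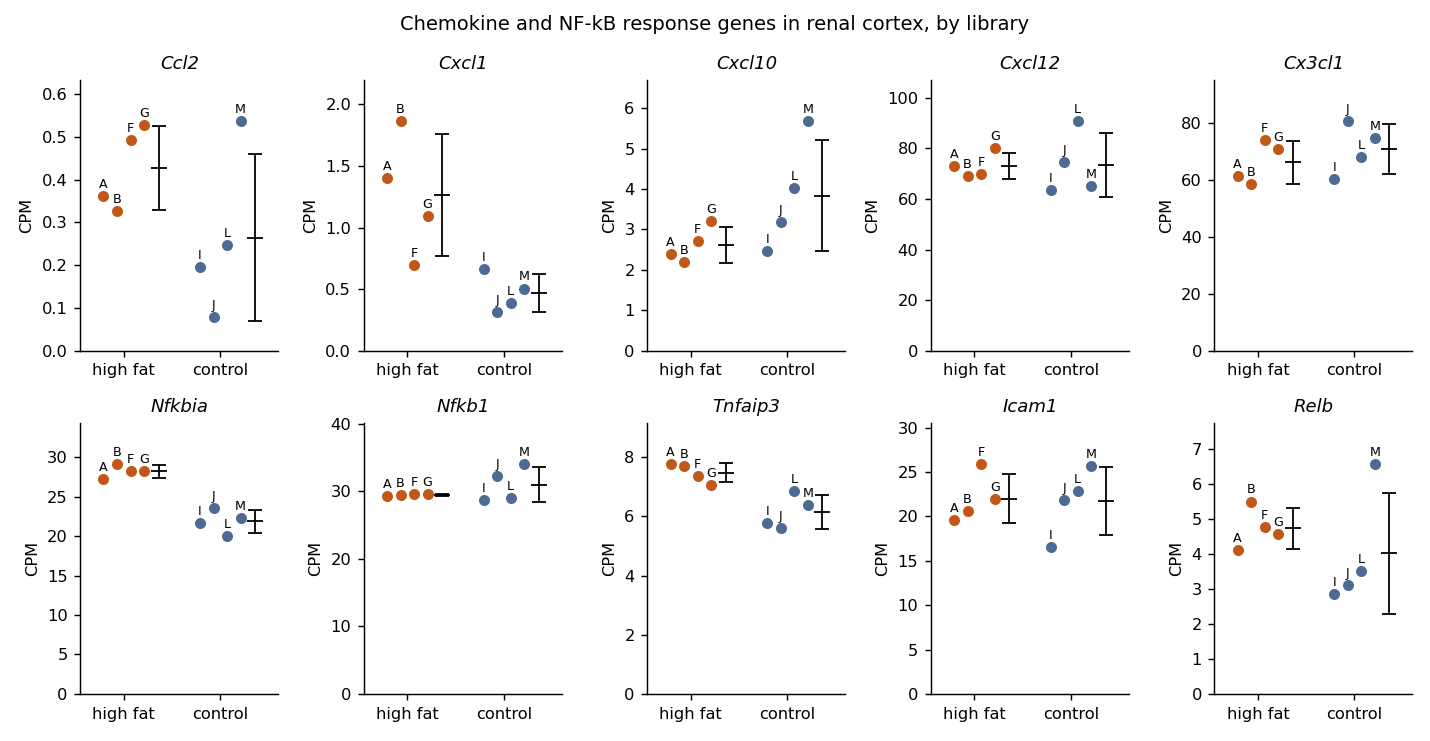
CPM (y axis, from 0, scaled per gene) of the 10 genes in each of 4 high fat libraries (orange) and 4 control libraries (blue), lettered as in the text, with the mean and SD of each diet as bars to the right of the points. The diets are apart in Nfkbia, Cxcl1 and Tnfaip3 and overlap in the other 7 genes.

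Nfkbia encodes IkBalpha, the inhibitor that retains NF-kB dimers in the cytoplasm and is itself a rapid NF-kB target (chromosome 12, 55489410 to 55492647, GENCODE M21 on GRCm38). Its level was 27.2, 29.1, 28.3 and 28.3 CPM in high fat A, B, F and G, against 21.7, 23.5, 19.97 and 22.2 CPM in control I, J, L and M. Every high fat library lay above every control library. The means were 28.2 ± 0.787 CPM on the high fat diet and 21.8 ± 1.46 CPM on the control diet (SD, n = 4 each). On the log2 scale the difference was 0.37 ± 0.06 (SE), or 1.29-fold (edgeR, adjusted p = 0.0065). Nfkbia was called in all 8 fits that left out 1 library, with log2 fold changes of 0.33 to 0.40. In the authors' deposited table by gene symbol, Nfkbia had a fold of 1.29 and a posterior probability of equal expression of 9.54e-05.

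Tnfaip3 encodes A20, a ubiquitin-editing enzyme that shuts off signalling upstream of the NF-kB kinases and is also induced by NF-kB (chromosome 10, 19000910 to 19015657). It had 7.76, 7.69, 7.35 and 7.07 CPM in high fat A, B, F and G, against 5.79, 5.60, 6.84 and 6.38 CPM in control I, J, L and M. The values did not overlap, but the lowest high fat library (G) and the highest control library (L) were close. The log2 fold change of 0.27 ± 0.10 (SE) did not pass, with an unadjusted p = 0.0164 and adjusted p = 0.0967 in edgeR. No fit without 1 library called it, and adjusted p there ran from 0.0813 to 0.217. Among the remaining inhibitors, Nfkbib averaged 10.3 ± 1.22 CPM on the high fat diet and 9.66 ± 1.14 CPM on the control diet (SD, n = 4 each). Nfkbie averaged 3.56 ± 0.317 CPM on the high fat diet and 3.58 ± 0.264 CPM on the control diet (SD, n = 4 each). Neither passed.

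Nfkb1 encodes p105, the precursor of the p50 subunit (chromosome 3, 135584655 to 135691547). It was nearly constant within the high fat diet, at 29.3, 29.4, 29.6 and 29.5 CPM in A, B, F and G, against 28.7, 32.2, 29.0 and 33.97 CPM in control I, J, L and M. All high fat values lay within the control range. The log2 fold change was -0.07 ± 0.07 (SE; adjusted p = 0.522 in edgeR), with no call in any fit without 1 library.

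Relb encodes the subunit that pairs with p52 in the non-canonical pathway (chromosome 7, 19606217 to 19629438). It had 4.11, 5.50, 4.77 and 4.56 CPM in high fat A, B, F and G, against 2.86, 3.11, 3.53 and 6.57 CPM in control I, J, L and M. Control M lay above all 4 high fat libraries and the other 3 controls below them. Relb thus had a log2 fold change of 0.20 ± 0.24 (SE; adjusted p = 0.640 in edgeR). Without control M it was 0.57, with adjusted p = 0.0332 in edgeR. None of the other fits without 1 library called Relb, and adjusted p there ran up to 0.924. The other subunit genes, named for their role after the counts of their list were seen, did not pass in edgeR either. Rela, the p65 subunit, had 20.7, 19.4, 19.96 and 21.8 CPM in high fat A, B, F and G, against 15.3, 15.2, 16.8 and 19.6 CPM in control I, J, L and M. Control M overlapped the high fat libraries in Rela as well. Its log2 fold change was 0.28 ± 0.09 (SE; adjusted p = 0.0648 in edgeR), and without control M it was 0.37 with adjusted p = 0.0153. That was the only call of Rela in 8 edgeR fits without 1 library, with adjusted p up to 0.162. Rela also passed in DESeq2 (adjusted p = 0.0477). Nfkb2, the precursor of p52, had 13.0 to 16.4 CPM on the high fat diet, against 20.5 CPM in control M and 10.6 to 11.7 CPM in the other 3 controls. Without control M it passed too, but in no other fit that left out 1 library.

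**Figure D2:**
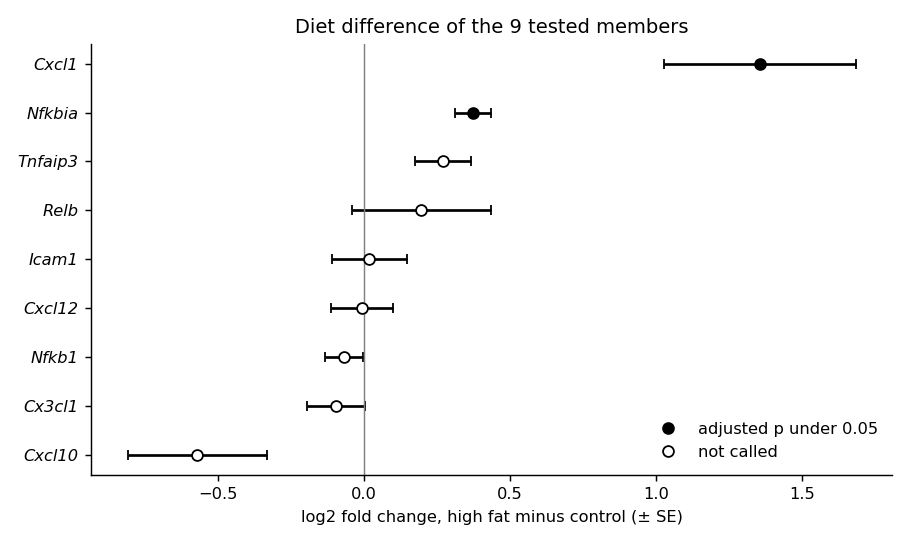
Log2 fold change, high fat minus control, of the 9 tested genes (x axis) with its standard error as a bar, from the edgeR fit on 4 libraries per diet. Filled points passed at an adjusted p under 0.05. Cxcl1 (1.36) and Nfkbia (0.37) passed, and Cxcl10 (-0.57) lay farthest below 0.

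Cxcl1 encodes a ligand of the receptor CXCR2 that attracts neutrophils (chromosome 5, 90891241 to 90893115). It was scarce in both diets, at 31, 40, 17 and 27 expected counts in high fat A, B, F and G, against 17, 4, 11 and 16 in control I, J, L and M. Scaled for depth, these were 1.40, 1.86, 0.698 and 1.10 CPM on the high fat diet, against 0.665, 0.311, 0.388 and 0.505 CPM on the control diet. The ranges did not overlap, although high fat F and control I were nearly equal. The means were 1.26 ± 0.492 CPM on the high fat diet and 0.467 ± 0.154 CPM on the control diet (SD, n = 4 each). On the log2 scale the difference was 1.36 ± 0.33 (SE), or 2.56-fold (edgeR, adjusted p = 0.0274). Summed over libraries, 115 counts on the high fat diet gave 1.24 CPM with an exact Poisson 95% interval of 1.03 to 1.49, and 48 counts on the control diet gave 0.488 CPM with an interval of 0.360 to 0.646. These intervals cover counting error only. The call was lost in 4 of 8 fits, those without high fat A (adjusted p = 0.0613 in edgeR), high fat B (adjusted p = 0.0557), control J (adjusted p = 0.0646) or control L (adjusted p = 0.0716), with log2 fold changes of at least 1.12. In the authors' deposited table by gene symbol, Cxcl1 had a fold of 2.71 and a posterior probability of equal expression of 0.0445.

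Ccl2 encodes the monocyte chemoattractant MCP-1, the ligand of CCR2 (chromosome 11, 82035571 to 82037453). It had 8, 7, 12 and 13 expected counts in high fat A, B, F and G, against 5, 1, 7 and 17 in control I, J, L and M. Control M held more than any high fat library. In CPM the diets overlapped, at 0.326 to 0.528 on the high fat diet and 0.0778 to 0.537 on the control diet. The sum of 40 counts on the high fat diet had a Poisson 95% interval of 0.309 to 0.588 CPM, and the sum of 30 counts on the control diet one of 0.206 to 0.435 CPM. These intervals, too, cover counting error only. With no filter on low counts the log2 fold change was 0.52 ± 0.42 (SE; adjusted p = 0.526 in edgeR), so no difference was detected.

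Cxcl10 encodes an interferon-inducible ligand of CXCR3 that attracts T cells (chromosome 5, 92346638 to 92348889). It had 2.39, 2.19, 2.71 and 3.21 CPM in high fat A, B, F and G, against 2.46, 3.19, 4.02 and 5.68 CPM in control I, J, L and M. The highest values were those of control L and M, while control I lay inside the high fat range. The means were 2.63 ± 0.444 CPM on the high fat diet and 3.84 ± 1.38 CPM on the control diet (SD, n = 4 each). The log2 fold change of -0.57 ± 0.24 (SE) had an unadjusted p = 0.0347 and did not pass (adjusted p = 0.148 in edgeR). Without control M it was -0.30. Exons of Art3, on the opposite strand, share bases with Cxcl10. Whether counting used the strand was not given in the sources used here, so reads of the pair may not be told apart. Art3 was at 1.69 CPM on the high fat diet and 1.94 CPM on the control diet and did not pass.

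Cxcl12 encodes SDF-1, the ligand of CXCR4 and CXCR7 made by stromal and endothelial cells (chromosome 6, 117168535 to 117181367). It had 73.2, 69.2, 69.7 and 79.98 CPM in high fat A, B, F and G, against 63.4, 74.5, 90.8 and 64.9 CPM in control I, J, L and M. All high fat values lay between the extremes of the control diet. Between the diets Cxcl12 differed by -0.01 ± 0.11 (log2, SE; adjusted p = 0.976 in edgeR), and its sign was positive without control L (0.11), high fat B or high fat F.

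Cx3cl1 encodes fractalkine, a membrane-tethered chemokine that binds CX3CR1 on monocytes and macrophages (chromosome 8, 94772009 to 94782427). It had 61.4, 58.5, 74.2 and 70.96 CPM in high fat A, B, F and G, against 60.3, 80.8, 68.2 and 74.9 CPM in control I, J, L and M. The diets overlapped. Its log2 fold change was -0.10 ± 0.10 (SE; adjusted p = 0.571 in edgeR).

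Icam1 encodes an adhesion molecule through which leukocytes bind activated endothelium and tubular cells (chromosome 9, 21015985 to 21028817). It had 19.5, 20.7, 25.9 and 21.9 CPM in high fat A, B, F and G, against 16.5, 21.9, 22.9 and 25.7 CPM in control I, J, L and M. The groups overlapped almost completely. Icam1 had a log2 fold change of 0.02 ± 0.13 (SE; adjusted p = 0.950 in edgeR), and it was -0.10 without control I. An antisense gene, Gm47079, shares exonic bases with Icam1 in GENCODE M21, so the same limit applies. Gm47079 was not among the counted gene symbols, so its level could not be given.

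No single library held the extreme values of all genes. Control M was highest in 4 of the 10 (Ccl2, Cxcl10, Nfkb1 and Relb). Control I was lowest in 4 (Cxcl12, Nfkb1, Icam1 and Relb) and control J in 3 (Ccl2, Cxcl1 and Tnfaip3). The relative spread within a diet was as low as 0.453% of the mean (Nfkb1, high fat) and as high as 73.8% (Ccl2, control).

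Levels were compared between genes per transcript length, as the deposited FPKM rescaled to library sizes without Rn45s. Averaged over the 8 libraries, Cxcl12 was highest at 28.1 FPKM, followed by Cx3cl1 at 22.2 and Nfkbia at 16.4. Icam1 averaged 8.77 FPKM, Nfkb1 7.41, Cxcl10 3.08, Relb 2.03 and Tnfaip3 1.56. Cxcl1 and Ccl2 were lowest, at 0.966 and 0.460 FPKM. Of neighbours in this order, the library ranges were apart between Nfkbia and Icam1 and between Nfkb1 and Cxcl10, and overlapped between the others. Cxcl12 nevertheless exceeded Cx3cl1 in 8 of 8 libraries, and Relb exceeded Tnfaip3 in 8 of 8.

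**Figure D3:**
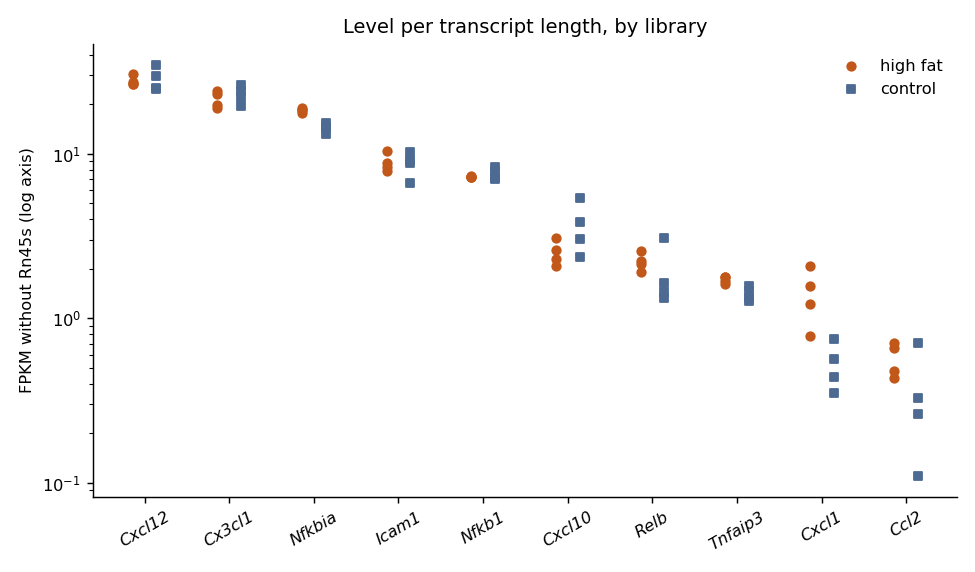
Level per transcript length (FPKM rescaled without Rn45s, log y axis) of the 10 genes in order of their mean, with 4 high fat libraries as circles and 4 control libraries as squares. Cxcl12 (28.1 FPKM on average) and Cx3cl1 (22.2) are the most abundant, and Cxcl1 (0.966) and Ccl2 (0.460) the least.

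In edgeR, 0 of 15 tested chemokine receptors passed, beside 9.99% of all tested genes. At an unadjusted p under 0.05 were 2 of the 15, beside 27.4% of all tested genes. DESeq2 called 1 (Ccr2) and limma-voom 0. The receptors of the ligands above were looked up for that role after these counts were seen. Ccr2, which binds CCL2, had 14.7, 11.1, 13.9 and 14.7 CPM in high fat A, B, F and G, against 6.50, 7.62, 12.8 and 10.6 CPM in control I, J, L and M. Of the high fat libraries, B lay below the highest control library (L). Its log2 fold change was 0.52 ± 0.18 (SE; adjusted p = 0.0963 in edgeR), and where control L was left out it was 0.71 and passed (adjusted p = 0.0363). Cxcr7 (now Ackr3), a scavenging receptor of CXCL12, was the most abundant receptor, with a mean of 20.7 FPKM. It averaged 45.6 ± 6.99 CPM on the high fat diet and 59.4 ± 12.7 CPM on the control diet (SD, n = 4 each; log2 fold change -0.37, adjusted p = 0.147 in edgeR). With control L left out, Cxcr7 passed at -0.52. Ccr2 and Cxcr7 were each called in only 1 of 8 fits without 1 library. Adjusted p in these fits ran up to 0.198 for Ccr2 and 0.305 for Cxcr7 in edgeR. Cxcr4, the signalling receptor of CXCL12, averaged 4.53 CPM on the high fat diet and 3.77 CPM on the control diet. On the high fat diet Cxcr2 averaged 9.10, Cxcr3 0.848 and Cx3cr1 4.92 CPM, and on the control diet Cxcr2 averaged 8.90, Cxcr3 0.666 and Cx3cr1 4.62 CPM.

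Of 31 other chemokine ligands, 13 had enough counts to be tested, and of these Ccl28 rose, Cxcl9 fell and 11 did not pass in edgeR. DESeq2 called a further gene, Cxcl14. Of the 13, 15.4% were called in edgeR, beside 9.99% of all tested genes, and their median log2 fold change was 0.02. An unadjusted p under 0.05 was seen in 5 of the 13, beside 27.4% of all tested genes. Ccl28, a ligand of mucosal epithelium, had 53.9, 30.4, 81.9 and 43.9 CPM in high fat A, B, F and G, against 7.90, 3.27, 6.49 and 19.4 CPM in control I, J, L and M. The diets were apart. Cxcl9, like Cxcl10 an interferon-inducible ligand of CXCR3, had 1.58, 1.40, 1.77 and 1.503 CPM in high fat A, B, F and G, against 2.42, 2.02, 2.58 and 3.50 CPM in control I, J, L and M. Every high fat library lay below every control library. The log2 fold change of Ccl28 was 2.42 ± 0.42 (SE; adjusted p = 0.0073 in edgeR), and that of Cxcl9 was -0.79 ± 0.18 (SE; adjusted p = 0.0219). Without control M, the highest control library, the log2 fold change of Ccl28 was 3.08. For Cxcl9 the call was lost without high fat G (adjusted p = 0.0556). Cxcl14 and Ccl9 had the smallest p among those that did not pass in edgeR, with log2 fold changes of -0.53 and 0.42. Cxcl14 passed in DESeq2 (adjusted p = 0.0260) and, in edgeR, without control I (-0.67, adjusted p = 0.0297). Ccl9 passed in edgeR without control L (0.61, adjusted p = 0.0441). Each was called in only 1 of 8 edgeR fits without 1 library, with adjusted p up to 0.159 for Cxcl14 and 0.301 for Ccl9. Cxcl16, the most abundant at 18.3 FPKM, averaged 44.5 CPM on the high fat diet and 43.6 CPM on the control diet.

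By edgeR, 0 of 28 other NF-kB subunits, inhibitors and kinases passed, beside 9.99% of all tested genes. An unadjusted p under 0.05 was seen in 3 of the 28, beside 27.4% of all tested genes. DESeq2 called 1 (Rela) and limma-voom 0. The median log2 fold change of the 28 was 0.07. Apart from Rela, the smallest p was that of Tnip1, an A20-binding inhibitor, at 21.7 ± 1.39 CPM on the high fat diet and 19.2 ± 1.496 CPM on the control diet (SD, n = 4 each; adjusted p = 0.156 in edgeR). Chuk, the kinase IKKalpha, was the most abundant at 67.7 FPKM, and averaged 235 CPM on the high fat diet and 232 CPM on the control diet. Of 19 tested cytokines and receptors that activate NF-kB, 0 passed in edgeR, beside the same 9.99%. Only 1 (Tlr3, log2 fold change 0.30) was at an unadjusted p under 0.05, beside the same 27.4%. DESeq2 and limma-voom called 0. The median log2 fold change of the 19 was 0.04. Tnf, Il1a, Lta and Ltb had too few counts to be tested. Il1r1, the interleukin 1 receptor, had a log2 fold change of -0.23, and Ltbr, the lymphotoxin beta receptor, was the most abundant at 35.2 FPKM.

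Of 31 other NF-kB inducible genes 23 were tested, and 2 rose, 3 fell and 18 did not pass, with a median log2 fold change of -0.02. That is 21.7% of the 23 called, beside 9.99% of all tested genes. At an unadjusted p under 0.05 in edgeR were 8 of the 23, beside 27.4% of all tested genes. The signal adaptor gene Traf1 averaged 1.61 ± 0.134 CPM on the high fat diet and 1.06 ± 0.144 CPM on the control diet (SD, n = 4 each), with no overlap. Cd83, a marker of mature dendritic and activated B cells, averaged 3.24 ± 0.732 CPM on the high fat diet and 1.72 ± 0.582 CPM on the control diet (SD, n = 4 each). For Cd83 the diets overlapped, with high fat B (2.28 CPM) below control L (2.43 CPM). Both rose in edgeR, by log2 fold changes of 0.60 for Traf1 and 0.86 for Cd83. Traf1 did not pass in DESeq2 (adjusted p = 0.106) or in edgeR with no filter on low counts (adjusted p = 0.0587). Ier3, an early response gene, averaged 17.8 ± 3.76 CPM on the high fat diet and 31.3 ± 4.37 CPM on the control diet, and the kinase gene Nuak2 averaged 79.9 ± 20.9 CPM on the high fat diet and 133 ± 13.1 CPM on the control diet (SD, n = 4 each). Ier3, Nuak2 and Tnfaip2 fell by 0.80, 0.74 and 0.30 on the log2 scale. The calls of Ier3 and Nuak2 held in all 8 fits without 1 library. Traf1 was called in only 1 of these fits, that without control M, with adjusted p up to 0.116 in edgeR (without high fat F). Cd83 was called in 2, those without high fat B and control L, with adjusted p up to 0.109 (without high fat F). Tnfaip2 was called in 2, those without high fat A and control L, with adjusted p up to 0.0651 (without control J). Lcn2, which encodes the injury marker NGAL, was scarcer than Cxcl1, at 0.604 CPM on the high fat diet and 0.300 CPM on the control diet. It did not pass (adjusted p = 0.0693 in edgeR), but did without control M (adjusted p = 0.0403). That was the only call of Lcn2 in 8 edgeR fits without 1 library, with adjusted p up to 0.161. Zc3h12a had a log2 fold change of 0.36 and did not pass. Sdc4, the most abundant at 176 FPKM, had a log2 fold change of -0.09.

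**Figure D4:**
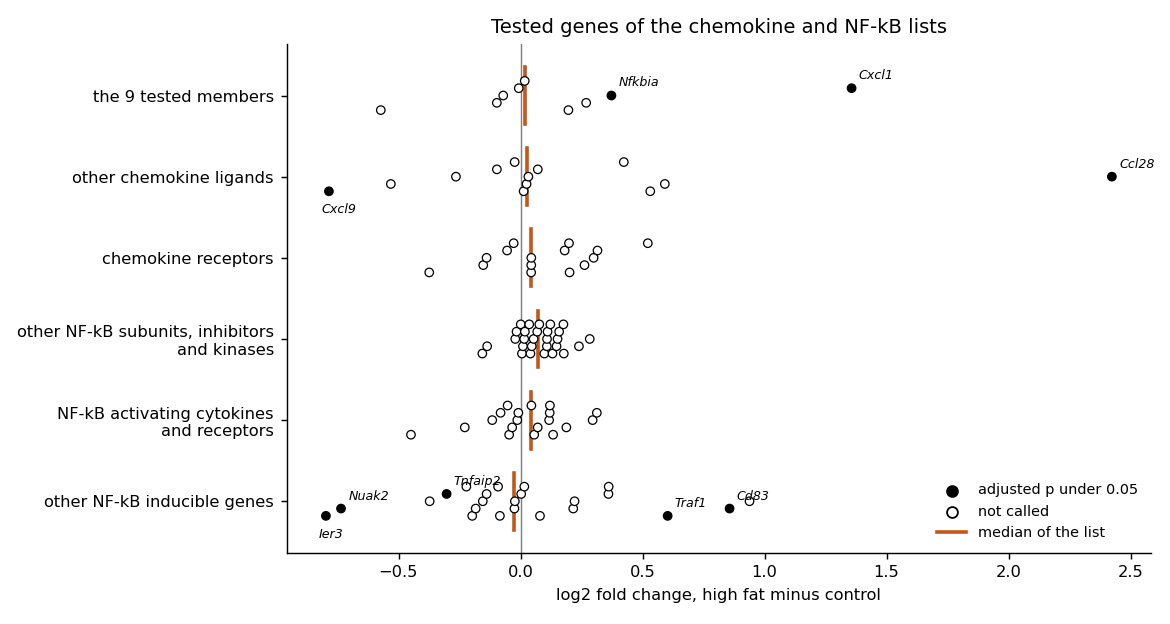
Log2 fold change, high fat minus control (x axis), of each tested gene of the set and of the 5 further lists (rows). Filled points passed at an adjusted p under 0.05, and the orange line is the median of the list. Over the 5 further lists 3 of 98 tested genes rose and 4 fell, or 7.14% called, beside 9.99% of all tested genes. All list medians lay between -0.02 and 0.07.

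Markers of cells that make or follow these chemokines were summed per library. In whole tissue, a change in the number of cells of a type and a change in RNA per cell cannot be told apart. The 9 macrophage and monocyte markers summed to 99.7 to 134 CPM on the high fat diet and 87.2 to 126 CPM on the control diet, and the lowest adjusted p among them in edgeR was 0.213 (Cd68). The 8 endothelial markers summed to 539 to 571 CPM on the high fat diet and 535 to 566 CPM on the control diet, with a lowest adjusted p of 0.282 in edgeR (Plvap). The 4 neutrophil markers with a row summed to 0.497 to 1.46 CPM on the high fat diet and 0.459 to 0.899 CPM on the control diet, and the 6 T cell markers to 2.47 to 3.53 CPM on the high fat diet and 2.62 to 3.47 CPM on the control diet. Among the neutrophil markers, Mpo averaged 0 CPM on the high fat diet and 0.0857 CPM on the control diet. The others had higher means on the high fat diet: S100a8 (0.392 against 0.216 CPM), S100a9 (0.399 against 0.248 CPM) and Retnlg (0.116 against 0.0451 CPM). None of the neutrophil markers had enough counts to be tested. The 4 B cell markers summed to 1.46 to 2.08 CPM on the high fat diet and 0.663 to 1.55 CPM on the control diet. The 5 markers of injured tubule summed to 10.1 to 15.7 CPM on the high fat diet and 11.6 to 14.2 CPM on the control diet. These sums overlapped between the diets. Among 7 stromal markers Acta2 fell, and their sums of 209 to 238 CPM on the high fat diet and 230 to 263 CPM on the control diet overlapped. Their part in the results above was not tested.

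**Figure D5:**
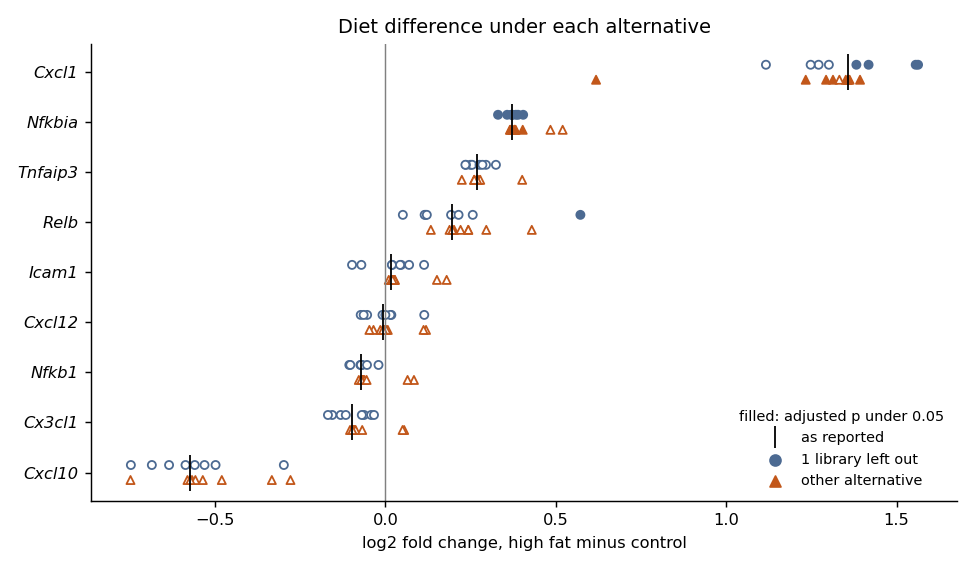
Log2 fold change, high fat minus control (x axis), of the 9 tested genes as reported (vertical tick), in 8 fits that each left out 1 library (circles) and in the other alternatives (triangles). Filled symbols passed at an adjusted p under 0.05. Nfkbia is filled in all 8 circles and Cxcl1 in 4, and the circles of Icam1 and Cxcl12 lie on both sides of 0.

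The count of genes called over the whole table changed when 1 library was left out, which also leaves fewer libraries to test. An effect of the smaller number and one of the particular library were not told apart. All 8 libraries gave 1469 calls. Leaving out high fat F gave 739, high fat G 908, high fat A 934 and high fat B 1171. Leaving out control I gave 795, control J 801, control L 994 and control M 1528. On the deposited FPKM values, whose total includes Rn45s, the median of all genes shifted by 0.15 on the log2 scale, and 64 genes were called higher and 27 lower, or 70.3% higher against 48.7% in the counts. On that scale Nfkbia had a log2 fold change of 0.52 and was not called (adjusted p = 0.999 in limma), while Cxcl1 was (adjusted p = 0.0113 in limma). After the FPKM values were rescaled without Rn45s, Nfkbia had 0.37 and Cxcl1 1.23, and both were called.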

How the data were processed

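Expected counts for each gene symbol, estimated by RSEM, were deposited by the authors. The submitters' processing notes name RSEM 1.2.9, CASAVA 1.8.2 and mm10. Per the labels, libraries were made from 1 ug of total RNA with ribosomal RNA removed. The authors also deposited FPKM values per gene symbol. A pair of the authors' deposited comparison tables give a fold (a ratio, high fat over control by the direction of the FPKM values beside it) and a posterior probability as a score, for 1133 and 1175 genes (tool not stated).

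Counts were rounded, Rn45s was removed, and edgeR 4.0.16 (R 4.3.3; filterByExpr with a minimum count of 10, TMM factors, quasi-likelihood F test, diet as the only term) was run on 14711 genes. SEs are the log2 fold change over the square root of F. On counts simulated for this comparison (14605 genes tested), 48% of genes changed by 1.3-fold and 96% changed by 2-fold were recovered, and 6.43% of calls were unchanged genes. The 200 changed genes had mean levels of at least 1 CPM, so these shares do not cover scarcer genes such as Cxcl1. Alternatives were DESeq2 1.42.0, its size factors, limma 3.58.1 (voom, and log2 FPKM with a pseudocount of 0.1 or 1 and a mean of at least 0.5), other filters, a robust fit and left-out libraries; rescaled FPKM was added after the data were seen. The genes and lists were chosen with earlier results of these data known. In each list the called genes (up to 5 per direction), 2 others with the smallest p and the most abundant gene are named. Library letters differ between the diets, so nothing was paired.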

Additional observations from a re-analysis of the deposited data

Results flagged for a closer look

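In 2 of the 62 groups of 4 libraries checked, 1 library lay far from the other 3 by Dixon's criterion, which chance alone meets in about 1 of 20 groups. Tnip1 was at 16.97 CPM in control I, against 19.8 to 20.2 CPM in the other control libraries. Chuk was at 206 CPM in control J, against 238 to 244 CPM in the other control libraries. No value of the 10 chemokine and NF-kB response genes met the criterion. Genes looked up only for their role, such as Nfkb2 and Cxcr2, were not among the groups checked. Nfkb2 was at 20.5 CPM in control M, against 10.6 to 11.7 CPM in the other control libraries. Cxcr2 was at 8.18 CPM in high fat A, against 9.34 to 9.50 CPM in the other high fat libraries.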

How the results depend on the processing

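Leaving out 1 library gave 421 to 759 genes called higher and 318 to 769 called lower, 1 to 3 called higher among the 10 genes, and 1 to 3 called among other chemokine ligands, 0 to 2 among receptors, 0 to 2 among other subunits, inhibitors and kinases and 2 to 4 among other inducible genes. Without control J and high fat G 244 genes were called higher and 173 lower, 1 of the 10 (Nfkbia), 1 other ligand and 2 inducible genes. On log2(FPKM + 0.1) as deposited, 64 and 27 genes, 1 of the 10 (Cxcl1) and 0 inducible genes were called, and on log2(FPKM + 1) 66 and 32 genes, 1 of the 10, 1 ligand and 0 inducible genes. Tested at mean levels from 5 CPM up, 1 of the 10, 1 ligand and 3 inducible genes were called. This minimum leaves Cxcl1, Cxcl9, Cd83 and Traf1 untested. DESeq2 called 1 receptor and 1 subunit. Signs of values near 0 turned. On log2(FPKM + 0.1) and log2(FPKM + 1), Cxcl12 was 0.12 and 0.11, Cx3cl1 0.0549 and 0.0503, Nfkb1 0.0836 and 0.0648, and Sdc4 0.0690 and 0.0677. Cxcl12 was 0.0068 with limma-voom and 0.0024 under the 5 CPM minimum, and Chuk -0.0403 without control J and high fat G. Without 1 library, Cxcl12 ran from -0.0726 to 0.114, Icam1 from -0.0981 to 0.113, Cxcl16 from -0.0124 to 0.0639 and Chuk from -0.0383 to 0.0389. The causes were not tested, except that FPKM rescaled without Rn45s, added after the data were seen, called 627 genes higher and 763 lower. No paired analysis was possible because the library letters differ between the diets. Depth limits Ccl2 and Cxcl1, which rest on 1 to 17 and 4 to 40 counts per library. It also limits Lcn2, which averaged 0.604 CPM on the high fat diet and 0.300 CPM on the control diet.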
